A study of Mus musculus with 6 samples.

Results

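The 10 genes described here are Atf4, Ddit3, Chac1, Trib3, Asns, Psat1, Phgdh, Sesn2 and Ddit4, which belong to the integrated stress response, and Fgf21, a hormone gene that this response can switch on. They were taken by name from 22180 genes measured on 6 mouse arrays. Had a gene carried several probe sets, 1 would have been chosen by the highest mean intensity, but each of the 10 had a single probe set, so no measured level decided which values are shown. The genes were named with earlier results of these arrays known, among them that of Fgf21, so the differences below are a description and not independent support. The arrays hold RNA of the whole sciatic nerve from animals aged 10 months, 3 arrays titled wild type, from littermates, and 3 titled Srebf-1c KO, mice without the lipogenic transcription factor SREBP-1c. The labels do not give the sex of the animals, the part of the gene removed or whether each array is a separate animal, and for KO samples another label field carries the wild-type name in conflict with title and genotype. Groups follow the titles.

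The integrated stress response begins when kinases phosphorylate the translation factor eIF2. This lowers protein synthesis in general while the messenger RNA of the transcription factor ATF4 is translated more. ATF4 then binds C/EBP-ATF response elements in genes for amino acid synthesis and transport, in Ddit3, which encodes CHOP, and in Trib3, Chac1, Sesn2 and Ddit4. In Schwann cells, the glia that make the myelin of this nerve, the pathway is known from neuropathies in which misfolded myelin proteins load the endoplasmic reticulum. FGF21 is best known as a hormone of the fasting liver, induced by the fat-sensing receptor PPAR alpha and also by ATF4. Since ATF4 is controlled largely at translation, the level of its messenger RNA is not a measure of its activity.

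The promoters of the 10 genes were searched for the C/EBP-ATF response element, because it is the sequence through which the response acts. RefSeq promoters of build GRCm38.p6, from 250 bases before to 50 bases after the start site, were found for all 10 genes, 11 promoters in total. The letters searched were TGATGNAA on both strands, so that TTNCATCA is the same element read from the other strand, and N is any base. Of 32851 promoters of this length, 3.97% held a match. Among the 10 genes 4 did, and each is printed with the match in capitals inside 30 bases, read 5′ to 3′ on the strand of the gene.
Chac1: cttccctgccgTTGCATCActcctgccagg
Fgf21: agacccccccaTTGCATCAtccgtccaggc
Asns: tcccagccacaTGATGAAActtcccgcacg
Trib3: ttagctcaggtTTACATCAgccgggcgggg

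The Chac1 match, at chr2:119351038-119351067 on the plus strand with its flanks, runs from -193 to -186 relative to the start site. That of Fgf21 lies at chr7:45615611-45615640 on the minus strand, from -139 to -132. Asns has its match at chr6:7693214-7693243 on the minus strand, from -23 to -16, and Trib3 at chr2:152344028-152344057 on the minus strand, from 15 to 22 bases into the transcript. Chac1 and Fgf21 share the same 8 letters. The 250 bases before the start site are shown for this pair, since they were the genes with the largest differences between genotypes.
Chac1: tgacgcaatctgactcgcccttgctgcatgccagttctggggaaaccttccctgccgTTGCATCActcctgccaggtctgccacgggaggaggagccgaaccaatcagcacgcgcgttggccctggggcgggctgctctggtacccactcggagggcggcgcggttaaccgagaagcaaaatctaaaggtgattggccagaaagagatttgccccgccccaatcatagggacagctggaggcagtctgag
Fgf21: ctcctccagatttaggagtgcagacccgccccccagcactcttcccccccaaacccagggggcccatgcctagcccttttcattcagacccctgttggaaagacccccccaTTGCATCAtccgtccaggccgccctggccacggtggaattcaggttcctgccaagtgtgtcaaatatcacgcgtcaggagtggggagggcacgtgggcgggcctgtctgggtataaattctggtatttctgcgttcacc

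The Chac1 stretch is chr2:119350992-119351241 and the Fgf21 stretch chr7:45615491-45615740, read on the minus strand. A sterol regulatory element, the site of the SREBP factors, was searched as TCACNCCAC on both strands. It was in none of the 11 promoters and in 1.24% of all promoters. The endoplasmic reticulum stress element, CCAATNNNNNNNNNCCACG, was likewise in none of them and in 0.119% of all. A match is a description of letters in this window, and no match says nothing of sites elsewhere.

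The values deposited are probe set intensities from the Robust Multichip Average, used here on the log2 scale. Array medians on the linear scale were 117.99, 117.62 and 115.5 for wild-type replicates 1 to 3. They were 121.17, 118.87 and 122.57 for KO replicates 1 to 3, all above wild type. The targeted gene, Srebf1, stood at 9.53 to 9.70 in wild type and at 8.04 to 8.11 in KO, and it was the 1 gene past a limma adjusted p of 0.05, which is 0.00451% of those tested. Schwann cell markers were bright on every array, with the peripheral myelin protein gene Pmp22 at 13.44 to 13.67 and Mbp, for myelin basic protein, at 12.65 to 12.81. Fat and muscle markers were also bright and uneven. The summed intensity of 13 measured adipocyte markers ran from 19760 to 50720 in wild type and from 17160 to 49500 in KO, highest on wild-type replicate 3 and KO replicate 2. That of 18 skeletal muscle markers ran from 48260 to 127700 and from 69260 to 114600, lowest on wild-type replicate 2. None of these markers had a mean under the background floor described next.

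Whether the 10 genes were measured above background was judged against 1105 olfactory receptor genes, which nerve is not known to use, since the table holds no detection calls. The 95th percentile of their mean log2 intensities, 6.56, was taken as the floor, and 36.1% of all genes have a mean under it. Of the 10 genes 2 were too dim by this rule and 8 were above it on every array. Fgf21 was under the floor on 6 of 6 arrays, with a mean of 5.99. Trib3 was under it on 5 of 6, with a mean of 6.42. The nearest gene above the floor was Sesn2 with a mean of 7.13, which a stricter floor at the 99th percentile, 7.75, would also leave too dim. For such genes most of the signal may be background, so a fold change may not show the size or the presence of a change in the transcript.

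**Figure D1:**
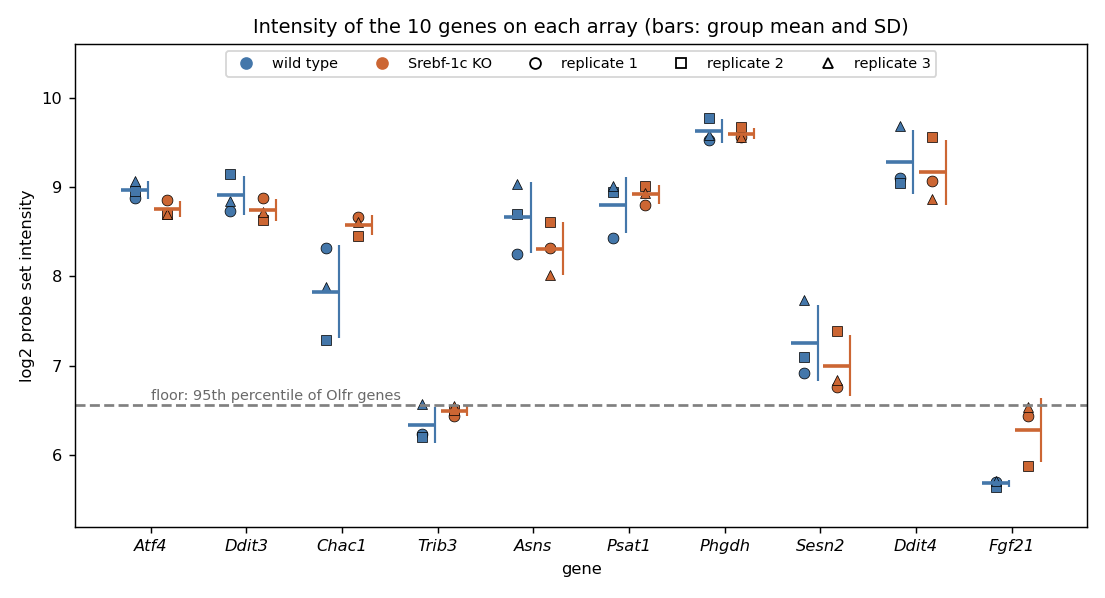
Log2 probe set intensity (y axis) of the 10 genes (x axis) on each of 6 arrays, with the group mean as a horizontal bar, the SD as a vertical bar and the olfactory receptor floor of 6.56 as a dashed line. Chac1 and Fgf21 are the genes whose 3 KO points all lie above the wild-type points, and every Fgf21 point is under the floor.

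None of the 10 genes passed a limma adjusted p of 0.05, with adjusted p from 0.850 to 0.987. At an unadjusted p under 0.05 there were 2, Chac1 and Fgf21, against 5.83% of all genes. The study's criterion is an unadjusted p under 0.05 with at least 1.5-fold change. With limma's p in place of the study's own, both met it in the direction of higher KO. With the unmoderated p that the study's methods name, Fgf21 alone met it and Chac1 did not. Of all genes 0.64% met it in that direction and 0.555% in the other, where none of the 10 stood. The 3 KO values lay all above the wild-type values in Chac1 and Fgf21, as in 4.08% of all genes, and all below them in Atf4, as in 8.21% of all genes. The other 7 genes overlapped between genotypes. In all, 4 of the 10 had a higher and 6 a lower mean in KO, and the median log2 fold change was -0.07, beside -0.03 over all genes. Whole nerve was measured, so fewer cells of a type and less RNA per cell cannot be told apart.

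**Figure D2:**
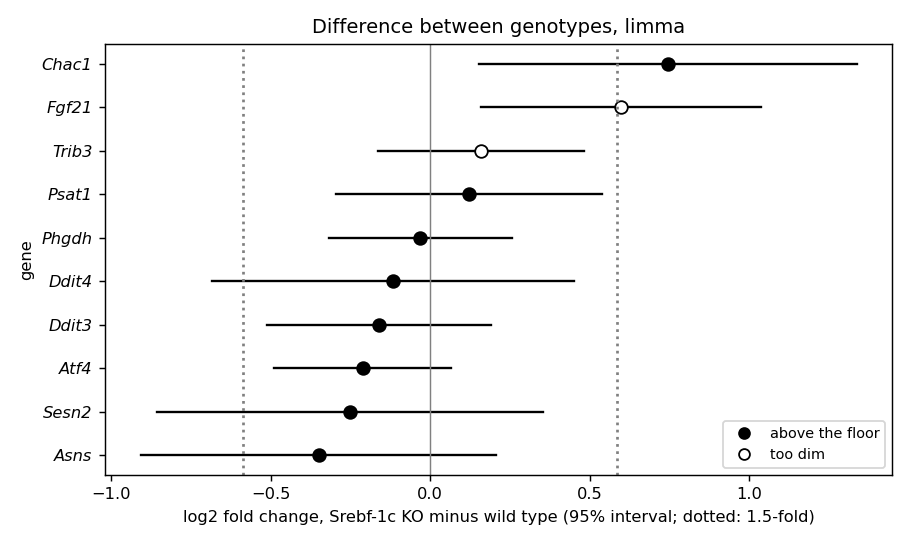
Log2 fold change of each gene (x axis, KO minus wild type) with its 95% interval from limma, sorted by size on the y axis, where open points are too dim and dotted lines mark 1.5-fold. The intervals of Chac1 and Fgf21 lie above 0 and those of the other 8 genes cross it.

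The genes of the 2 transcription factors had slightly lower means in KO, and neither passed the test. Atf4 had a log2 intensity of 8.87, 8.96 and 9.07 on wild-type replicates 1 to 3 and of 8.86, 8.70 and 8.70 on KO replicates 1 to 3. The groups did not overlap, but the highest KO array and the lowest wild-type array were nearly level. The log2 fold change was -0.21 ± 0.12 (SE, limma adjusted p = 0.872), with a 95% interval from -0.49 to 0.066. Ddit3, whose product CHOP takes part in the death of stressed cells, stood at 8.73, 9.15 and 8.84 in wild type and at 8.88, 8.63 and 8.73 in KO. Its groups overlapped, and the log2 fold change was -0.16 ± 0.15 (SE, adjusted p = 0.910).

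Chac1 encodes an enzyme that breaks down glutathione and is a late target of the ATF4 and CHOP arm. The wild-type arrays gave log2 intensities of 8.32, 7.29 and 7.88, with a mean of 7.83 ± 0.52 (SD, n = 3). The KO arrays gave 8.66, 8.45 and 8.61, with a mean of 8.57 ± 0.11 (SD, n = 3). Every KO array lay above every wild-type array, and the wild-type arrays were spread far more widely than the KO arrays. The log2 fold change was 0.75 ± 0.25 (SE), which is 1.68-fold, with a 95% interval from 0.15 to 1.34 and a limma adjusted p = 0.850.

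The lowest Chac1 value was that of wild-type replicate 2, the array on which 16 of the 18 muscle markers were also lowest. Fgf21 and Trib3, both too dim, were lowest on it too, and the share of all genes lowest there is not given. KO replicate 2 had a muscle marker mean of -0.37 relative to the 6 arrays, with Chac1 at 8.45. For wild-type replicate 1 these values were 0.86 and 8.32. Without wild-type replicate 2 the log2 fold change of Chac1 was 0.47 ± 0.17 (SE), under 1.5-fold. With the mean of the muscle markers as a covariate it was 0.64 ± 0.13 (SE, limma adjusted p = 0.716), and with that of the adipocyte markers 0.73 ± 0.26. Without wild-type replicate 1 it was 0.99 ± 0.20 (SE). Without KO replicate 1 or KO replicate 3 its unadjusted limma p was 0.0551 and 0.0525, so that the criterion was no longer met. The direction was the same in each of these fits, and the part of muscle RNA in the difference was not tested further.

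Trib3, for a pseudokinase that restrains AKT and ATF4 signalling, was too dim to judge. It stood at 6.24, 6.21 and 6.57 in wild type and at 6.44, 6.50 and 6.55 in KO, a log2 fold change of 0.16 ± 0.14 (SE, limma adjusted p = 0.903). The highest of the 6 values was a wild-type one. Chac1 and Trib3 answer to the same factors in many cells, and here the values of the first did not overlap between genotypes while those of the other did. Whether the 2 differences differ from each other was not tested.

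The enzymes of amino acid synthesis showed no common direction. Asns, asparagine synthetase, is a standard readout of ATF4 and stood at 8.25, 8.70 and 9.03 in wild type and at 8.31, 8.61 and 8.01 in KO. This is the lowest mean of the 10 relative to wild type, at a log2 fold change of -0.35 ± 0.24 (SE, limma adjusted p = 0.892), and the groups overlapped widely. Phgdh, the first enzyme of serine synthesis, stood at 9.53, 9.78 and 9.58 in wild type and at 9.56, 9.68 and 9.56 in KO. Its log2 fold change of -0.03 ± 0.12 (SE, adjusted p = 0.987) has a 95% interval from -0.32 to 0.25, which leaves out a change of 1.5-fold either way. Psat1, the next enzyme of that pathway, stood at 8.43, 8.95 and 9.01 in wild type and at 8.80, 9.01 and 8.94 in KO. The log2 fold change was 0.12 ± 0.18 (SE, adjusted p = 0.952), and wild-type replicate 1 alone was low.

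Sesn2 and Ddit4 both encode inhibitors of the growth kinase mTORC1, the first as a leucine sensor and the other through the TSC complex. Sesn2 stood at 6.92, 7.10 and 7.73 in wild type and at 6.76, 7.39 and 6.85 in KO. Ddit4 stood at 9.10, 9.05 and 9.69 in wild type and at 9.06, 9.56 and 8.86 in KO. For both genes the 2 highest arrays were wild-type replicate 3 and KO replicate 2, 1 of each genotype, and the groups overlapped. The log2 fold changes were -0.25 ± 0.26 (SE, limma adjusted p = 0.922) for Sesn2 and -0.12 ± 0.24 (SE, adjusted p = 0.970) for Ddit4.

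The 2 arrays on which Sesn2 and Ddit4 were highest are those on which the adipocyte markers were highest, which held for 11 of the 13 markers. Among macrophage markers the same pair of arrays was highest for 7 of 8 genes, and among all genes for 9.54%. Of the 10 genes described, 3 had this pair highest, the third being Psat1, whose values on the pair, 9.01 each, were little above those of other arrays. Asns did not have this pair highest, since wild-type replicate 2 stood between them. With the adipocyte mean as a covariate the SE of the log2 fold change went from 0.26 to 0.13 for Sesn2, from 0.24 to 0.13 for Ddit4 and from 0.24 to 0.15 for Asns. The log2 fold changes were then -0.17, -0.04 and -0.28, and none passed the limma test (adjusted p of 0.811 to 0.974). Without wild-type replicate 3 the log2 fold change was -0.01 for Sesn2 and 0.09 for Ddit4. Without KO replicate 2 it was -0.45 for Sesn2 and -0.32 for Ddit4. With both of these arrays left out it was -0.21 for Sesn2 and -0.11 for Ddit4. The part of fat tissue in these values was not tested further.

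**Figure D3:**
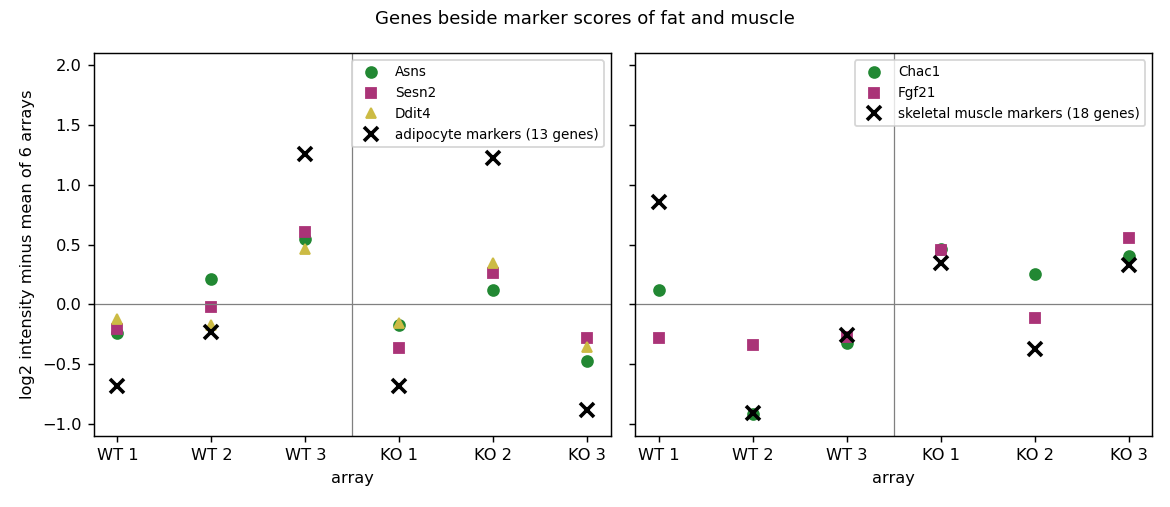
Log2 intensity minus the mean of 6 arrays (y axis) on each array (x axis), for Asns, Sesn2 and Ddit4 beside the mean of 13 adipocyte markers (left), and for Chac1 and Fgf21 beside the mean of 18 muscle markers (right). Sesn2 and Ddit4 are highest on WT 3 and KO 2, where the adipocyte crosses are highest. Chac1 and Fgf21 are lowest on WT 2, where the muscle cross is lowest.

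Fgf21 was dim on every array and stood higher on the KO arrays. On the linear scale the wild-type arrays read 52.16, 50.04 and 52.4 and the KO arrays 87.02, 58.71 and 92.96. The log2 means were 5.69 ± 0.037 (SD, n = 3) for wild type against 6.29 ± 0.36 (SD, n = 3) for KO. The wild-type arrays were almost level, KO replicates 1 and 3 were clearly above them, and KO replicate 2 was only a little above. The log2 fold change was 0.60 ± 0.19 (SE), which is 1.51-fold, with a 95% interval from 0.16 to 1.04 and a limma adjusted p = 0.850. It was 0.80 ± 0.13 (SE) without KO replicate 2, 0.52 ± 0.22 without KO replicate 1 and 0.47 ± 0.20 without KO replicate 3. The KO arrays had the same order in their array medians as in Fgf21. With the arrays set to 1 median the log2 fold change was 0.55 ± 0.18 (SE), and the part of array level was not tested further. No fit of all arrays or with 1 array left out gave Fgf21 an adjusted p under 0.05.

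KO replicates 1 and 3 also had higher muscle marker means than KO replicate 2, at 0.35 and 0.33 against -0.37 relative to the mean of 6 arrays. Wild-type replicate 1 had the highest muscle mean, 0.86, with Fgf21 at 5.70. With the muscle mean as a covariate the log2 fold change of Fgf21 was 0.56 ± 0.18 (SE), and with the adipocyte mean 0.56 ± 0.16, both just under 1.5-fold. Liver is the best known source of FGF21, and of 8 hepatocyte markers 4 were too dim. The hepatocyte markers had no common order of arrays. Cyp2e1, which fat also expresses, was highest on KO replicate 2 and wild-type replicate 3, as were 3 of the 8 in all, while Ttr was highest on wild-type replicate 1, at 11.69. The part of muscle, fat or liver RNA in the Fgf21 values was not tested further.

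The 4 genes with a C/EBP-ATF match showed no common direction. Their log2 fold changes were 0.75 for Chac1, 0.60 for Fgf21, 0.16 for Trib3 and -0.35 for Asns, and the other 6 genes ran from -0.25 to 0.12. Over all tested genes with a RefSeq promoter, the 666 with a match had a median of -0.02, beside -0.04 for the 16990 as a whole. None of the 666 passed the adjusted test. The study's criterion was met by 5 of them in each direction, beside 0.64% of all genes higher in KO and 0.555% lower. Chac1 and Fgf21 are among the 5 that were higher. Of the 319 genes with a match that were not too dim, 3 met it as higher and 1 as lower.

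Around the 10 genes, 177 other genes of 11 pathway lists were measured, and 0 passed a limma adjusted p of 0.05 in either direction. At an unadjusted p under 0.05 there were 9 with a higher and 4 with a lower mean in KO, beside 5.83% of all genes in both directions together. Of the higher ones, 3 were PPAR alpha targets and 6 glucocorticoid-responsive genes, with Pdk4 in both lists, and the only other was Gpt2. All 4 with a lower mean were in lists of the stress response. Counts of higher and lower means in each list stand beside 43.1% of all genes with a higher mean in KO. The lists were drawn up with earlier results of these arrays known. The genes named from each list are those with the smallest p, so a lack of overlap among them follows in part from that choice. Over all genes, 8.21% had all KO arrays below wild type and 4.08% had all above. The eIF2 kinases, phosphatase subunits and the exchange factor eIF2B had 13 of 16 measured genes with a lower mean and a median log2 fold change of -0.11. Eif2b2, a subunit of eIF2B, stood at -0.28 ± 0.11 (SE, adjusted p = 0.850), with all KO arrays below wild type. Ppp1r15a, for GADD34, the phosphatase subunit that ends the response, stood at -0.23 ± 0.12 (adjusted p = 0.868), again with no overlap. The kinase gene Eif2ak3, for PERK, stood at -0.25 ± 0.14 (adjusted p = 0.872).

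Partners of ATF4 and other stress transcription factors, among them Atf6, Xbp1 and Nfe2l2, had 10 of 15 lower means and a median of -0.07. Atf3 is a target of ATF4 and also an immediate early and nerve injury gene, and it met the study's criterion. It stood at 9.51, 9.69 and 9.28 in wild type and at 9.01, 8.69 and 8.99 in KO, a log2 fold change of -0.59 ± 0.16 (SE, limma adjusted p = 0.850). All KO arrays lay below all wild-type arrays. Nupr1, a stress-induced chromatin protein gene, stood at -0.51 ± 0.22 and Cebpg, for a partner of ATF4 on its response elements, at -0.23 ± 0.12, neither past the test (adjusted p = 0.852 and 0.870).

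Amino acid synthesis and one-carbon genes had 9 of 14 lower means and a median of -0.05. Mthfd2, a mitochondrial folate enzyme gene and target of ATF4, stood at -0.35 ± 0.12 (SE), and Gpt2, for a mitochondrial alanine transaminase, at 0.30 ± 0.12, both without overlap and in opposite directions (limma adjusted p = 0.850 for each). Amino acid transporters were split, with 7 of 13 higher and a median of 0.01, and Slc7a5, for the leucine carrier, stood at 0.27 ± 0.15. Cytosolic aminoacyl-tRNA synthetases, many of which ATF4 induces, had 14 of 18 lower means and a median of -0.12. In 6 of the 18 all KO arrays lay below wild type, beside 8.21% of all genes, among them Tars at -0.25 ± 0.11, Gars at -0.34 ± 0.15 and Farsa at -0.29 ± 0.14.

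Other targets of ATF4 and CHOP were divided, with 9 of 18 higher and a median of -0.01. The autophagy gene Map1lc3b stood at 0.21 ± 0.11 (SE) and Herpud1, for a protein of endoplasmic reticulum degradation, at -0.17 ± 0.17. Chaperones of the endoplasmic reticulum and of the XBP1 and ATF6 arm had 14 of 21 lower means and a median of -0.08, with Creld2 at -0.24 ± 0.11 and the co-chaperone gene Dnajb9 at 0.26 ± 0.12. Mitochondrial stress genes, a list that also holds Fgf21, had 8 of 13 lower means and a median of -0.11, with the protease gene Lonp1 at -0.31 ± 0.13. No gene named here passed the limma test (adjusted p of 0.850 or more).

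**Figure D4:**
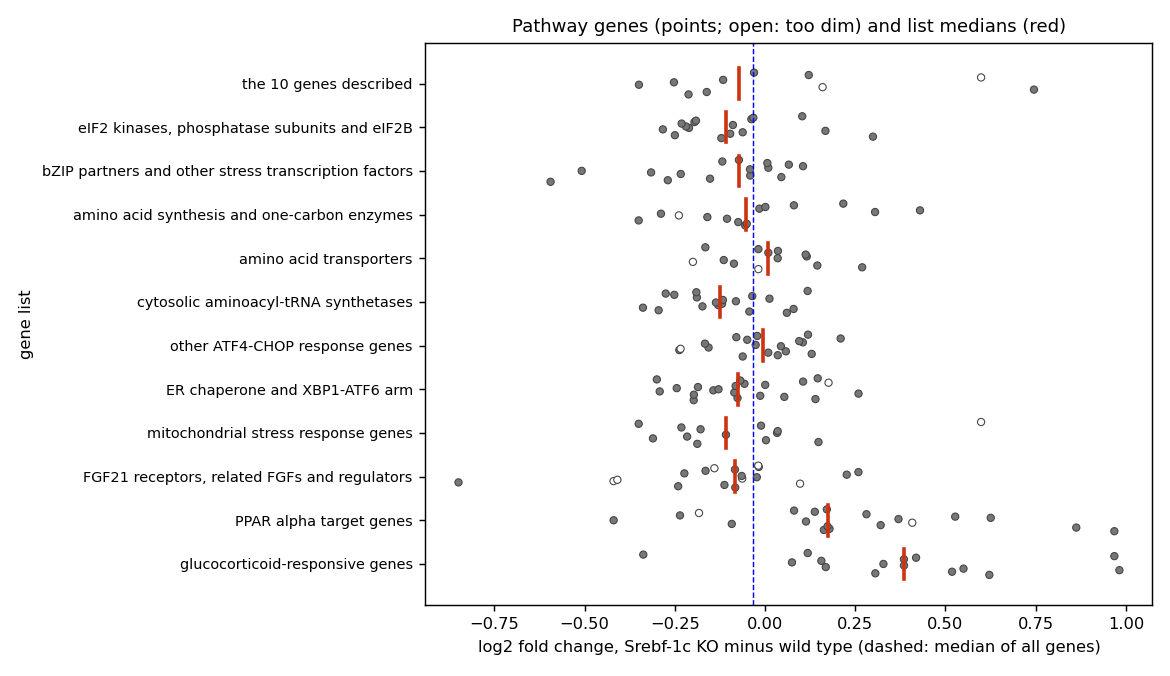
Log2 fold change (x axis, KO minus wild type) of each measured gene of 11 pathway lists and of the 10 genes described (rows on the y axis), with list medians in red, the median of all genes as a dashed line and open points for genes that are too dim. Lists of the stress response have medians from -0.12 to 0.01, and those of PPAR alpha targets and glucocorticoid-responsive genes lie at 0.17 and 0.38.

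The list of FGF21 receptors, related FGFs and regulators had 15 of 18 lower means and a median of -0.08, with 6 of the 18 too dim. Klb, for the co-receptor beta-Klotho that FGF21 needs, stood at 6.26 to 8.996 in wild type and at 5.64 to 7.93 in KO. It was under the floor on 3 of 6 arrays and highest on the 2 arrays richest in adipocyte markers. Its log2 fold change was -0.85 ± 0.86 (SE, limma adjusted p = 0.920). Ppara, for the receptor that induces Fgf21 in liver, stood at 0.23 ± 0.15. PPAR alpha targets had 15 of 19 higher means and a median of 0.17. Pdk4, for a kinase that shuts off pyruvate dehydrogenase, stood at 11.57, 11.44 and 11.35 in wild type and at 12.96, 11.84 and 12.45 in KO. Like Fgf21, it was highest on KO replicates 1 and 3 and nearest to wild type on KO replicate 2. Acot2, for a mitochondrial thioesterase, stood at 0.86 ± 0.29 (SE), with limma adjusted p = 0.850 for Pdk4 and for Acot2. Pdk4 and Acot2 both met the study's criterion in the direction of higher KO. The mean of the target list, relative to the 6 arrays, did not have the order of Fgf21. It was highest on KO replicate 2, at 0.22, and stood at 0.057 on wild-type replicate 3 beside -0.008 on KO replicate 3.

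Ddit4 also answers to glucocorticoids in many tissues. Glucocorticoid-responsive genes, a list that shares Pdk4 with the PPAR alpha targets, had 14 of 15 higher means and a median of 0.38, and in 6 of the 15 all KO arrays lay above wild type, beside 4.08% of all genes. Of the 15 genes 2 met the study's criterion in the direction of higher KO, Pdk4 among them. The mean of the list, relative to the 6 arrays, was highest on KO replicate 2, at 0.30. It overlapped between genotypes, at 0.054 on wild-type replicate 3 beside 0.041 on KO replicate 3. The clock gene Per1 stood at 0.52 ± 0.13 (SE) and the kinase gene Sgk1 at 0.55 ± 0.16, with limma adjusted p = 0.850 for each, beside -0.12 for Ddit4.

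Genes with the most similar profile were sought among those not too dim, 12895 for Atf4 and 12896 for Fgf21, by the root mean square difference of log2 values over the 6 arrays after each gene was centred on its own mean. Nearest to Atf4 were Trip6, Mynn and Ubxn7, at differences of 0.026, 0.029 and 0.032. Nearest to Fgf21 were Retreg1, Cd55b and Zfp935, at 0.075, 0.087 and 0.11. Retreg1, for a receptor that sends endoplasmic reticulum to autophagy, was bright, at 10.79, 10.86 and 10.86 in wild type and at 11.55, 10.96 and 11.51 in KO. These genes were picked for their likeness, so their own differences between genotypes carry no test.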

How the data were processed

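RNA of each of 6 nerve samples was hybridised to 1 Affymetrix whole-transcript array each, per the labels. The deposited intensity values were made by the authors with the Robust Multichip Average in the TAC and Partek software, per the series' design text. Their linear scale is inferred from the values, from 3.67 to 23738. The versions of that software were not given in the sources at hand. A genome build, mm8, is named in the submitters' processing notes. Log2 was taken with no pseudocount. Of 41077 probe sets, the 23521 with 1 gene symbol in the platform annotation gave 22180 genes, each by its brightest probe set. The difference between KO and wild type was fitted for all genes with limma (version 3.58.1, R version 4.3.3), two-sided, with Benjamini-Hochberg adjustment over 22180 genes, and no filter on dim genes. Intervals are 95% from the moderated fit. The number of arrays limits the precision, and since no label says that samples are separate mice, the p-values reflect only how far these samples differ, which can be technical. The study's criterion used the p of an ANOVA, and limma's unadjusted p takes its place here.

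The 10 genes, the lists and the tests were chosen with earlier results of these data known. Named beside the 10 were Srebf1, up to 3 genes per pathway list with the smallest p, up to 2 per marker list with the highest mean and the 3 nearest profiles to Atf4 and Fgf21. Predicted, clone and receptor-segment genes were left out of the nearest profiles. The fit was checked on simulated arrays. Promoters came from RefSeq (GRCm38.p6). Python 3.11.15 with matplotlib 3.10.9 was used for searches and plots. Alternatives were other normalizations, priors, weights, filters, covariates, a replicate block and leaving out each array, and 1 that left out both arrays richest in adipocyte markers was added after seeing the data.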

Additional observations from a re-analysis of the deposited data

How the results depend on the processing

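None of the 10 genes passed a limma adjusted p of 0.05 in any setting, and an adjusted p limit of 0.10 called the same numbers, 0 of the 10 and 1 of all genes. The 1 gene past that threshold, Srebf1, was lost (0 genes) with the replicate block, the methods' ANOVA, arrays at 1 median, either marker covariate and both arrays richest in adipocyte markers left out, and the count was 0 to 1 with 1 array left out. Of the 2 genes meeting the study's criterion, 1 was left with the ANOVA (Fgf21), after quantile normalization, with arrays at 1 median, with 16 added before log2 and with either covariate (Chac1), without the dimmest 50% of genes (Chac1, Fgf21 not tested) and without both adipocyte-rich arrays (Fgf21). It was 0 at a fold change of at least 2 and 0 to 2 with 1 array left out, 0 without wild-type replicate 2, KO replicate 1 or KO replicate 3. The count of genes whose groups did not overlap went from 3 to 5 with both adipocyte-rich arrays left out, where fewer arrays make a lack of overlap easier by construction. The median log2 fold change ran from -0.14 to 0.038 with 1 array left out. In every setting that fitted them, Atf4, Ddit3, Asns and Sesn2 kept a lower mean and Chac1, Fgf21 and Trib3 a higher one. Directions turned with 1 array left out for Ddit4 (-0.32 to 0.088), Psat1 (-0.060 to 0.23) and Phgdh (-0.082 to 0.044). A floor at the 25th percentile of all genes would call 0 of the 10 too dim, and that at the 99th percentile of olfactory receptors 3. Deviations from the group means had correlations of 0.062, -0.020 and -0.047 between arrays with the same number. The largest between any 2 arrays of different genotype was 0.14, for wild-type replicate 3 and KO replicate 2, both rich in adipocyte markers. With 3 arrays a group and uneven fat and muscle RNA, these values cannot tell whether the numbers pair the samples. With the replicate block the log2 fold change of Chac1 was 0.75 with an SE of 0.19.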
